A study of Homo sapiens with 10 samples.

Results

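The genes described here are 40 genes of epithelial cell junctions and of the epithelial-mesenchymal transition (EMT), taken as a list of symbols. They comprise 5 genes of adherens junctions, 11 of tight junctions and apical polarity, 10 of desmosomes, 8 that mark or regulate epithelial identity and 6 mesenchymal genes. Expression was measured on 10 Illumina BeadChips in HN5, an EGFR-amplified tongue carcinoma line that is sensitive to the EGFR inhibitor erlotinib, and in FaDu, a pharyngeal carcinoma line that is resistant to it. Both are head and neck squamous carcinoma cell lines, and RNA was taken 24 h after transfection with the precursor of the microRNA miR-7 or of a negative control, miR-NC. There were 2 arrays of each precursor in HN5 and 3 of each in FaDu, so the controls had been transfected too. Named probes were present for 38 of the 40 genes on each array type, as 74 probes in HN5 and 72 in FaDu; F11R and TJP3 had none and are not measured here. After a filter that kept probes above background on every array of at least 1 group, 31 of the 40 genes were tested among 9549 genes in HN5 and 32 among 9997 in FaDu.

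Adherens junctions, tight junctions and desmosomes join neighbouring epithelial cells. In adherens junctions and desmosomes, cadherins on the cell surface are tied through catenins, plakophilins and desmoplakin to actin and to keratin filaments, whereas in tight junctions claudins and occludin seal the space between cells and bind the scaffold proteins of the zonula occludens. Carcinoma cells that undergo EMT lose these contacts and gain vimentin and N-cadherin, and the transcription factors ZEB1, SNAI1 and SNAI2 repress epithelial genes by binding E-boxes in their promoters. miR-7 pairs with messenger RNAs through its seed, bases 2 to 8, and EGFR is a well-known target. The mature sequence from RefSeq (GRCh38.p14) is shown with the seed in capitals because it is the agent that the 2 groups of arrays differ by. It is encoded at chr9:83969811-83969834 on the minus strand (MIR7-1) and at chr19:4770700-4770723 on the plus strand (MIR7-3), among other loci.
hsa-miR-7-5p: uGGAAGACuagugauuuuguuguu

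EGFR was examined in every array first, as a check of the labels. Its log2 intensity was 13.81 and 13.68 in the HN5 miR-NC arrays and 12.11 and 12.05 in the HN5 miR-7 arrays, a log2 fold change of -1.67 ± 0.18 (SE, limma adjusted p = 0.0492), which did not pass without miR-NC replicate 1 or 2 (adjusted p = 0.529 and 0.265). In FaDu it was 7.91, 7.98 and 7.94 in the arrays labelled miR-NC and 9.61, 9.48 and 9.46 in those labelled miR-7, a log2 fold change of 1.57 ± 0.07 (adjusted p = 2.64e-06). These values are of the brightest of 4 EGFR probes. Of the others, 3 were tested in HN5, at -0.50, -0.21 and -0.69 (the last not well above background with miR-7), and 2 in FaDu, at 0.45 and 0.18, and the mean of the probes gave -0.77 (adjusted p = 0.184) and 0.73 (adjusted p = 0.000224). On each tested probe EGFR was therefore lower with miR-7 in HN5, whereas in FaDu each was higher under the miR-7 label, which goes against that label and is opposite to the direction that the study describes. FaDu values are given by the labels throughout, and every FaDu sign would turn, with the same size and p, if the 2 sets of labels were exchanged. In HN5, miR-7 replicate 2 stood apart, with a correlation of 0.902 to 0.921 with the other 3 arrays, which correlated at 0.980 to 0.987 with their nearest array. The nearest-array correlation in FaDu was 0.994 to 0.996. Between 14158 and 14726 probes were above background on the HN5 arrays and 16034 to 17424 on the FaDu arrays. The labels do not say whether arrays of a group came from separate cultures, so p-values measure only the spread between arrays, which may be technical.

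In HN5, 0 of the 31 tested genes were lower and 0 were higher at an adjusted p under 0.05, where 0.126% of all genes tested were lower and 0.178% higher. With the methods' thresholds, an unadjusted p under 0.05 and a change of at least 1.5-fold, 4 of 31 were lower (PKP2, PKP1, CDH11 and CLDN1) and 2 were higher (CGN and MARVELD3), against 4.41% and 6.01% of all genes. Limma with a robust variance prior also gave 0 members, with 116 genes lower and 140 higher over all genes, whereas the methods' t-test with Benjamini-Hochberg adjustment called 0 of all genes and so says nothing of the members. Without miR-7 replicate 1, which leaves 1 miR-7 array whose spread is assumed to equal that of the control arrays, 6 were lower and 4 higher of 32 tested, and without miR-7 replicate 2, 1 was lower and 0 higher. The counts over all genes rose with them, from 12 lower and 17 higher to 837 and 937 without miR-7 replicate 1 and to 261 and 222 without replicate 2. In FaDu, 12 of 32 tested genes (37.5%) were higher under the miR-7 label and 5 (15.6%) were lower, where 20% of all genes tested were higher and 21.8% lower. CDH11, 1 of the 12, passed the filter only through the group in which it was higher. With the methods' t-test these counts were 9 and 3, where 1518 of all genes were higher and 1547 lower. At a limma unadjusted p under 0.05 and a change of at least 1.5-fold, 4 FaDu members were higher and 4 lower. Over all 9997 genes 728 were higher and 531 lower by these thresholds. Higher members thus outnumbered lower ones only where changes under 1.5-fold were counted too. The median log2 fold change over the tested members was -0.12 in HN5 and 0.12 in FaDu, and over all genes it was 0.04 and -0.03. The HN5 median was -0.02 with median scaling, and without 1 array it ranged from -0.26 (without miR-NC replicate 2) to 0.06 (without miR-7 replicate 1), above 0 also without miR-NC replicate 1 (0.0085). Without miR-7 replicate 1 the only miR-7 array left was replicate 2, the one that stood apart. That median and the counts given above for the same setting therefore rest on it. The moderated standard error of a member had a median of 0.222 in HN5 and 0.0834 in FaDu, which limits what 4 arrays could show in HN5. The arrays of the 2 groups did not overlap for 15 of 31 members in HN5 (48.4%) and 23 of 32 in FaDu (71.9%). Over all genes tested the shares were 48.2% and 53.5%. Separation of the arrays of 1 gene, given below, was therefore common, and in HN5 no more frequent in members than elsewhere.

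**Figure D1:**
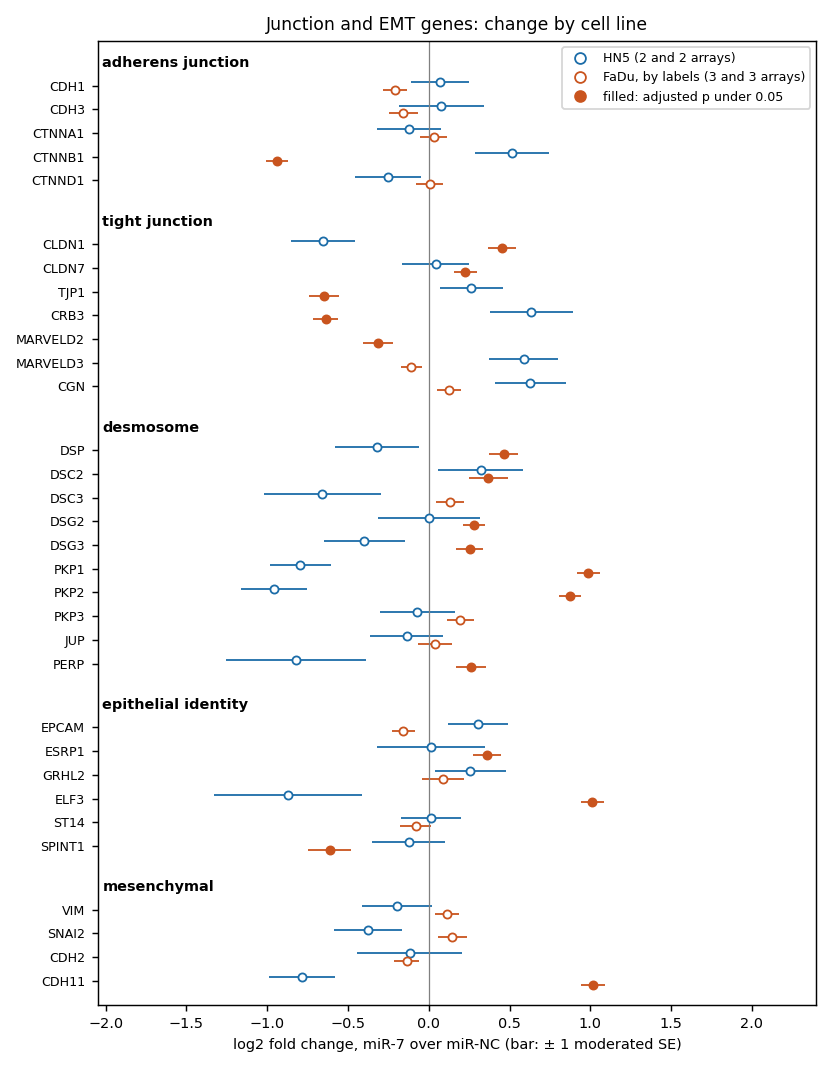
Log2 fold change of each tested member (x axis, miR-7 over miR-NC, bars ± 1 moderated SE) by role group, in HN5 (blue, 31 genes) and in FaDu by its labels (orange, 32 genes), with filled points past an adjusted p of 0.05. The 17 filled points are all of FaDu, and CDH11 and ELF3 in HN5 and CDH11 in FaDu are set against a group not well above background. Of the 10 desmosome genes, 9 lie below 0 in HN5, with DSG2 at -0.0008 and 0 called, while 10 of 10 lie above 0 in FaDu. Over all genes, 4312 of 9549 lay below 0 in HN5 and 4610 of 9997 above 0 in FaDu.

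Of the 5 adherens junction genes tested in FaDu, 1 passed and 4 did not, where 41.8% of all genes passed. The 1 was CTNNB1 (β-catenin, which links cadherins to α-catenin and also carries Wnt signals). Its log2 intensity was 9.68, 9.71 and 9.74 in the FaDu arrays labelled miR-NC and 8.83, 8.76 and 8.71 in those labelled miR-7. All 3 miR-7-labelled arrays were below all 3 controls, a 1.92-fold decrease (log2 fold change -0.94 ± 0.07, adjusted p = 2.23e-05). The other probe of CTNNB1 above background gave -1.0 (adjusted p over all probes = 0.000162). In HN5 the brighter probe read 10.53 and 10.19 with miR-NC and 10.71 and 11.05 with miR-7, so that both miR-7 arrays were the higher ones, at 0.52 ± 0.23 (adjusted p = 0.411).

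CDH1, which encodes E-cadherin, the defining adhesion molecule of adherens junctions, was close to the threshold in FaDu. Its log2 intensity was 11.25, 11.14 and 11.17 in the arrays labelled miR-NC and 11.06, 10.99 and 10.88 in those labelled miR-7, with no overlap. The log2 fold change was -0.21 ± 0.07, a 1.16-fold difference (adjusted p = 0.05003), and the gene passed under 4 of the 15 alternative settings. In HN5 the 4 arrays lay between 12.89 and 13.01 and differed by 0.07 ± 0.18 (adjusted p = 0.883). CDH3 (P-cadherin), CTNNA1 (α-catenin) and CTNND1 (p120 catenin, which holds cadherins at the membrane) had log2 fold changes of -0.16, 0.03 and 0.01 in FaDu and of 0.08, -0.12 and -0.25 in HN5, and none of them passed. CTNND1 read 6.99 and 6.64 with miR-NC and 6.57 and 6.56 with miR-7 in HN5 (SE 0.20, adjusted p = 0.598), and 6.67 to 6.91 over all 6 FaDu arrays (SE 0.08, adjusted p = 0.966).

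Tight junction genes moved in both directions in FaDu: of 7 tested, 3 fell in the arrays labelled miR-7 (TJP1, CRB3 and MARVELD2) and 2 rose (CLDN1 and CLDN7), where 21.8% of all genes fell and 20% rose. TJP1 encodes ZO-1, the scaffold under the tight junction strands. It read 9.92, 10.13 and 9.98 in the arrays labelled miR-NC and 9.49, 9.39 and 9.22 in those labelled miR-7, and the groups did not overlap. The log2 fold change was -0.65 ± 0.09 (1.57-fold lower, adjusted p = 0.000807), and the other probe gave -0.72 (adjusted p over probes = 0.000102). In HN5 TJP1 read 10.64 and 10.66 with miR-NC and 11.05 and 10.77 with miR-7, at 0.26 ± 0.20 (adjusted p = 0.563).

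CRB3 (crumbs homologue 3, which sets up the apical domain) was lower in FaDu by a similar amount. It read 8.58, 8.65 and 8.54 in the arrays labelled miR-NC and 7.85, 8.02 and 8.0 in those labelled miR-7, at -0.64 ± 0.07 (1.56-fold lower, adjusted p = 0.000276). Its other tested probe gave -0.28 and did not pass (adjusted p over probes = 0.0649). In HN5 the same probe read 10.16 and 10.71 with miR-NC and 10.92 and 11.22 with miR-7, so that both miR-7 arrays were above both controls, at 0.63 ± 0.26 (adjusted p = 0.383), and the other probe gave 0.69. MARVELD2 (tricellulin, found where 3 cells meet) fell by 0.31 in FaDu (adjusted p = 0.0274) on one probe and by 0.32 on the other, and was not tested in HN5, where no probe was above background on both arrays of a group.

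CLDN1 (claudin-1, a strand protein that seals tight junctions) was on the opposite side in each line. In FaDu it read 9.59, 9.51 and 9.73 in the arrays labelled miR-NC and 10.14, 10.11 and 9.94 in those labelled miR-7. All 3 miR-7-labelled arrays were higher, at 0.45 ± 0.09 (1.37-fold, adjusted p = 0.00352). In HN5 CLDN1 read 12.35 and 12.05 with miR-NC and 11.52 and 11.58 with miR-7, at -0.66 ± 0.20 (1.58-fold lower, unadjusted p = 0.0182 and adjusted p = 0.279, limma). Both miR-7 arrays were below both controls, and the groups did not overlap for 48.2% of all genes in HN5. CLDN7 rose by 0.23 ± 0.07 in FaDu (adjusted p = 0.0341) and differed by 0.04 ± 0.21 in HN5.

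CGN (cingulin, which ties ZO proteins to the actin belt) read 8.72 and 8.53 with miR-NC and 9.06 and 9.45 with miR-7 in HN5, at 0.63 ± 0.22 (1.55-fold, adjusted p = 0.327). In FaDu its 6 arrays lay between 7.63 and 7.88 and the groups overlapped, at 0.13 ± 0.08 (adjusted p = 0.216). MARVELD3, a further tight junction membrane protein, gave 0.59 ± 0.21 in HN5 (adjusted p = 0.337), with 3 of 3 probes above 0, and -0.11 ± 0.07 in FaDu (adjusted p = 0.242). CLDN4 and OCLN (occludin) were not above background on any array of either line and have no test.

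Promoters are shown for 5 members that moved in FaDu and hold E-boxes, because the EMT repressors named above bind this motif; DSC2, DSG2 and SPINT1, which also moved and had matches, are not printed. RefSeq windows of 300 bases around the start of transcription (most of them before it, GRCh38.p14) were held for 44 transcript starts of 25 members. The E-box was searched as CAGGTG on both strands, so that CACCTG is the same motif read from the other strand, and it occurred in 14 of these 44 windows (31.8%) and in 20.6% of all 35116 windows. Several windows belong to 1 gene, and no test was made of these shares. CRB3, which fell, had 5 matches, as had 1 of the 2 CLDN7 windows, and 0.168% of all windows had 4 or more. In CRB3 the matches began 228, 208, 147, 89 and 60 bases before the start. TJP1, which fell, had 1 match in 1 of its 4 windows, 88 bases before that start, whereas ELF3, which rose, had 1 match 120 bases before it and DSP, which rose, had 2, at 178 and 85 bases. A grainyhead-like motif, AACNNGTT, was searched in the same way and was found in 3.52% of all windows and in 4 of the members' 44, none of them among the 5 printed here. The windows below run 5′ to 3′ with the E-boxes in capitals, and lie at chr19:6464021-6464320 on the plus strand (CRB3), chr17:7262429-7262728 on the minus strand (CLDN7), chr15:29969000-29969299 on the minus strand (TJP1), chr6:7541421-7541720 on the plus strand (DSP) and chr1:202010337-202010636 on the plus strand (ELF3).
CRB3: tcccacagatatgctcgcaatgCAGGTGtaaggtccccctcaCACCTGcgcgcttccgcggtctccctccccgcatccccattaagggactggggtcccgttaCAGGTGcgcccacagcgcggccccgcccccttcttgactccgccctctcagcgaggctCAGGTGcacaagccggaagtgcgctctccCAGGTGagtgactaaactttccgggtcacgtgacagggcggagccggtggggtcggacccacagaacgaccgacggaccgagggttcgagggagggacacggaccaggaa
CLDN7: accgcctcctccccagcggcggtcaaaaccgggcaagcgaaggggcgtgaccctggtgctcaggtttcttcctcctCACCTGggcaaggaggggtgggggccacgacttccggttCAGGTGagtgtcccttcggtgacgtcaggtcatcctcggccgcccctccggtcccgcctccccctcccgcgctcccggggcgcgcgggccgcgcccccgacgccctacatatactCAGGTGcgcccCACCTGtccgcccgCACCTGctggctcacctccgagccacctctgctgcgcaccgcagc
TJP1: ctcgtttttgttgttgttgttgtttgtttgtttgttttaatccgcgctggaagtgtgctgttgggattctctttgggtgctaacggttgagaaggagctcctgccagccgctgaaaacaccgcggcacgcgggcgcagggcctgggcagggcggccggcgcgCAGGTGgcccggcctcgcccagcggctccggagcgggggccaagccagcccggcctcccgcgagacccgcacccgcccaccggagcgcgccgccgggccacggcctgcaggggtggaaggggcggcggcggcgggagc
DSP: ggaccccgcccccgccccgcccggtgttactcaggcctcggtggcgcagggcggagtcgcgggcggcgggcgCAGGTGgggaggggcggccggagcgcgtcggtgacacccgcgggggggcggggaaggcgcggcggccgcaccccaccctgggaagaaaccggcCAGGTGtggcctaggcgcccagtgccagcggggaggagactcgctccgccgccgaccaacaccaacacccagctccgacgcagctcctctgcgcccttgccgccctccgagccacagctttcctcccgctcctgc
ELF3: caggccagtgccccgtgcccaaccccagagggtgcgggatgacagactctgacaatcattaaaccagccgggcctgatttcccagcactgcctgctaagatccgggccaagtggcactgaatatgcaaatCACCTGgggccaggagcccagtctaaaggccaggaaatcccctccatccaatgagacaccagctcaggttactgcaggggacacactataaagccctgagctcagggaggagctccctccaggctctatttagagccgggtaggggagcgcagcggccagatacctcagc
A match is a description of these letters and not a site shown to be bound, and of the 14 called FaDu members with a window, 6 had no match (CTNNB1, CLDN1, MARVELD2, DSG3, PKP1 and PERP).

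Desmosome genes moved one way in FaDu. Of 10 tested, 7 rose in the arrays labelled miR-7 and 0 fell at the adjusted threshold (by limma, 8 and 0 at an unadjusted p under 0.05), where 20% of all genes rose and 21.8% fell (23.6% and 26.5% unadjusted), and their median log2 fold change was 0.27 against -0.03 over all genes. At a limma unadjusted p under 0.05 and a change of at least 1.5-fold, 2 of the 10 rose and 0 fell in FaDu. By these thresholds 728 of all 9997 genes rose and 531 fell. In HN5, 0 of 10 passed, 2 were lower at an unadjusted p under 0.05 (5.62% of all genes were), and the median was -0.36 against 0.04. PKP1 encodes plakophilin 1, which gathers desmosomal cadherins in stratified epithelia. In FaDu it read 7.21, 7.05 and 7.06 in the arrays labelled miR-NC and 8.16, 8.09 and 8.05 in those labelled miR-7. The gap between the groups was wider than the range within either, at 0.99 ± 0.07 (1.99-fold higher, adjusted p = 2.70e-05). In HN5 PKP1 read 12.46 and 12.24 with miR-NC and 11.54 and 11.56 with miR-7, at -0.79 ± 0.19 (1.74-fold lower, unadjusted p = 0.00668, adjusted p = 0.195).

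PKP2 (plakophilin 2, the form found in simple epithelia and heart as well) had the largest change of the tested members in HN5. It read 10.41 and 10.07 with miR-NC and 9.31 and 9.27 with miR-7 there, at -0.96 ± 0.20 (1.94-fold lower, unadjusted p = 0.00415, adjusted p = 0.16). In FaDu it read 8.50, 8.37 and 8.41 in the arrays labelled miR-NC and 9.29, 9.33 and 9.28 in those labelled miR-7, at 0.87 ± 0.07 (1.83-fold higher, adjusted p = 3.28e-05). The 2 plakophilins thus differed by similar amounts in each line, downward in HN5 and upward by the labels in FaDu. DSP (desmoplakin, which anchors keratin filaments) read 10.14, 9.91 and 10.06 in the FaDu arrays labelled miR-NC and 10.61, 10.49 and 10.40 in those labelled miR-7, at 0.46 ± 0.09 (1.38-fold, adjusted p = 0.00361), and its other tested probe gave 0.47. In HN5 DSP read 12.62 and 12.07 with miR-NC and 11.86 and 12.19 with miR-7, and the groups overlapped (-0.32 ± 0.26, adjusted p = 0.600).

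Of the other desmosome genes, the cadherins DSC2 (desmocollin 2), DSG2 and DSG3 (desmogleins 2 and 3) and the tetraspan protein PERP rose in FaDu by 0.37, 0.28, 0.25 and 0.26, with adjusted p of 0.0372, 0.0115, 0.0377 and 0.0484. The other DSC2 probe gave 0.10 and did not pass, and the other DSG2 probe gave 0.44 (limma adjusted p over probes = 0.00292). With adjustment over probes PERP did not pass (0.0532). DSC3, PKP3 and JUP (plakoglobin) gave 0.13, 0.20 and 0.04 and did not pass. In HN5 the 7 gave between -0.82 (PERP) and 0.32 (DSC2, whose other probe gave -0.15). For PERP and DSC3 (-0.66) 1 array was low there: PERP read 10.58 and 10.12 with miR-NC and 10.15 and 8.91 with miR-7, and DSC3 11.56 and 11.66 against 11.48 and 10.43, the low value of each being that of miR-7 replicate 2, the array that stood apart. Their standard errors were 0.43 and 0.36, against a median of 0.222.

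**Figure D2:**
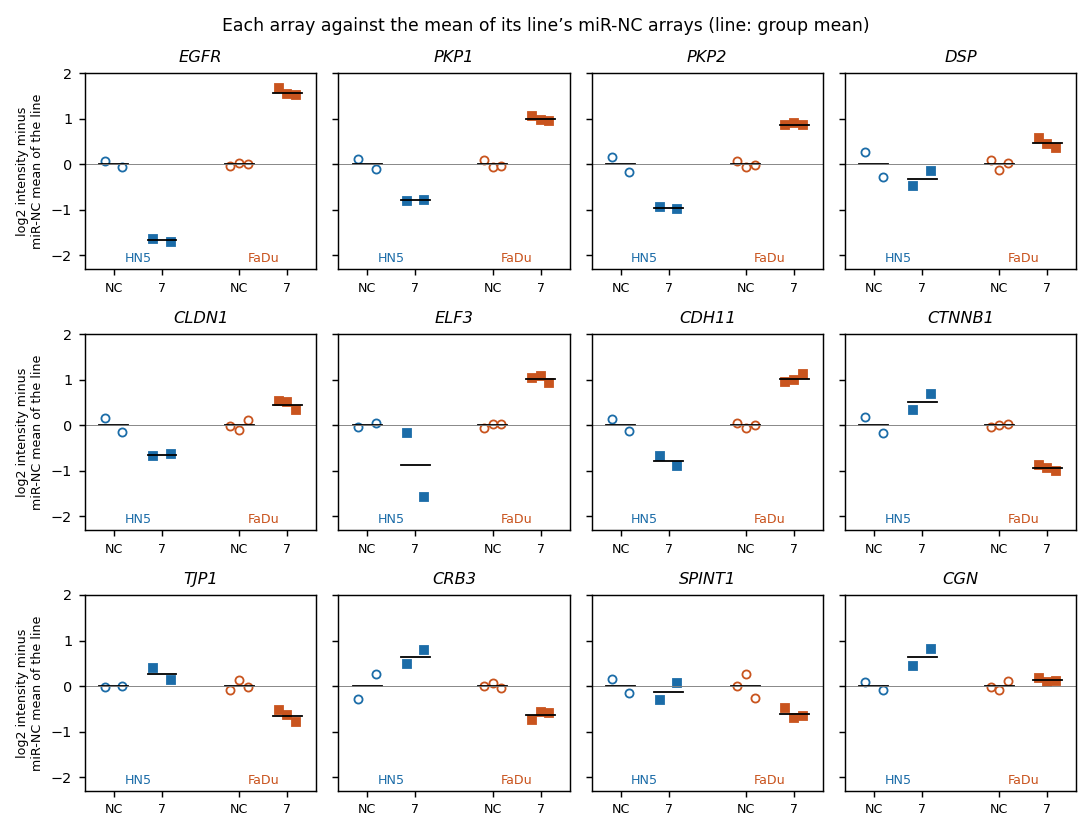
Log2 intensity of EGFR and 11 members on each array, less the mean of the miR-NC arrays of the same line (y axis), with open circles for miR-NC, filled squares for miR-7 (FaDu by its labels) and black lines for group means. PKP1, PKP2, CLDN1, ELF3 and CDH11 lie below 0 with miR-7 in HN5 and above 0 in the FaDu arrays labelled miR-7, as EGFR does, and CTNNB1, TJP1 and CRB3 lie the other way.

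Among 6 tested genes of epithelial identity, 2 rose (ELF3 and ESRP1) and 1 fell (SPINT1) in FaDu, where 20% of all genes rose and 21.8% fell. In HN5, 0 of 6 tested passed (0 also at an unadjusted p under 0.05), where 0.304% of all genes did. ELF3 is an epithelium-specific transcription factor of the ETS family. In FaDu it read 9.36, 9.45 and 9.45 in the arrays labelled miR-NC and 10.45, 10.50 and 10.36 in those labelled miR-7, at 1.01 ± 0.07 (2.02-fold higher, adjusted p = 2.04e-05). In HN5 it read 6.53 and 6.63 with miR-NC, above background on both arrays, and 6.41 and 5.01 with miR-7, where it was not well above background on either. Its group means there differed by a bound of at least 1.11-fold, lower with miR-7, set against the lowest signal above background of each miR-7 array. That bound leaves out the spread between arrays, and the gene was not called (SE 0.46, limma adjusted p = 0.463). The value of 5.01 was that of miR-7 replicate 2, the array that stood apart. ELF3 was tested in HN5 only because of its control arrays.

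SPINT1 encodes HAI-1, a membrane inhibitor of the serine protease matriptase (ST14), and the 2 keep the epithelial surface in balance. SPINT1 read 7.13, 7.40 and 6.86 in the FaDu arrays labelled miR-NC and 6.65, 6.44 and 6.48 in those labelled miR-7, at -0.61 ± 0.13 (1.53-fold lower, adjusted p = 0.00638). Its other probe gave 0.02, and with the mean of both probes or with the methods' t-test it did not pass (adjusted p = 0.0502 and 0.0638). In HN5 SPINT1 read 10.26 and 9.97 with miR-NC and 9.81 and 10.18 with miR-7, with overlap (-0.12 ± 0.23, adjusted p = 0.825). ST14 gave -0.08 in FaDu and 0.01 in HN5 and did not pass in either.

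EPCAM, an adhesion molecule of epithelial cells, read 12.78, 12.68 and 12.64 in the FaDu arrays labelled miR-NC and 12.48, 12.57 and 12.58 in those labelled miR-7, at -0.16 ± 0.07 (adjusted p = 0.108), and passed under 3 of the 15 alternatives. Of its 2 other probes in FaDu, one gave -0.45 (adjusted p over probes = 0.0223) and the other -0.06. In HN5 EPCAM read 11.66 and 11.59 with miR-NC and 12.02 and 11.84 with miR-7, at 0.31 ± 0.19 (adjusted p = 0.499). ESRP1, a splicing factor that maintains epithelial exons, rose by 0.36 ± 0.09 in FaDu (adjusted p = 0.0106) and gave 0.01 ± 0.33 in HN5, and GRHL2, a grainyhead transcription factor that drives junction genes, gave 0.09 and 0.26. ESRP2 was not above background on any array of either line, and OVOL1, a repressor of mesenchymal genes, only on 1 HN5 array.

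Of the mesenchymal genes, 4 of 6 were tested in each line, and CDH11 alone passed, in FaDu, where 41.8% of all genes did. CDH11 (cadherin 11, the cadherin of mesenchymal cells and osteoblasts) read 5.40, 5.29 and 5.35 in the FaDu arrays labelled miR-NC, where it was not well above background on any, and 6.29, 6.33 and 6.47 in those labelled miR-7, where it was above background on all 3. It was at least 1.72-fold higher in the latter (adjusted p = 2.56e-05). In HN5 it was above background on both miR-NC arrays, at 6.65 and 6.38, and on neither miR-7 array, at 5.83 and 5.63. Its group means there differed by a bound of at least 1.06-fold, lower with miR-7, and it was not called (limma unadjusted p = 0.0101, adjusted p = 0.220). It passed the filter in each line only through the group in which it was higher, so that it had to differ.

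VIM, which encodes the intermediate filament vimentin, read 14.52 and 14.11 with miR-NC and 14.11 and 14.12 with miR-7 in HN5, at -0.20 ± 0.22 (adjusted p = 0.694). In FaDu it read 7.68, 7.65 and 7.66 in the arrays labelled miR-NC and 7.71, 7.89 and 7.72 in those labelled miR-7, at 0.11 ± 0.07 (adjusted p = 0.254). Its other probe read 13.25 to 13.54 on the HN5 arrays and was not above background on any FaDu array, at 4.36 to 4.91. The lines were normalized apart on different array types, so these levels stand side by side without a test.

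SNAI2 (Slug, a repressor of epithelial genes) read 12.78 and 12.44 with miR-NC and 12.32 and 12.15 with miR-7 in HN5 on its brighter probe, at -0.37 ± 0.21 (adjusted p = 0.476). Its other probe read 11.99 and 11.91 with miR-NC and 11.66 and 5.23 with miR-7, so that miR-7 replicate 2 alone was near background, whereas the brighter probe on the same array read 12.15. In FaDu SNAI2 read 9.91, 10.19 and 10.01 in the arrays labelled miR-NC and 10.16, 10.27 and 10.13 in those labelled miR-7, at 0.15 ± 0.09 (adjusted p = 0.225), and the other probe gave 0.32 (adjusted p over probes = 0.0223). CDH2 (N-cadherin) read 9.10, 9.11 and 9.26 against 9.02, 9.10 and 8.95 in FaDu, at -0.14 ± 0.08 (adjusted p = 0.189). In HN5 it read 11.55 and 11.84 with miR-NC and 12.01 and 11.14 with miR-7, with the groups overlapping (-0.12 ± 0.33, adjusted p = 0.893). ZEB1 and FN1 (fibronectin) were not above background on any array of either line.

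**Figure D3:**
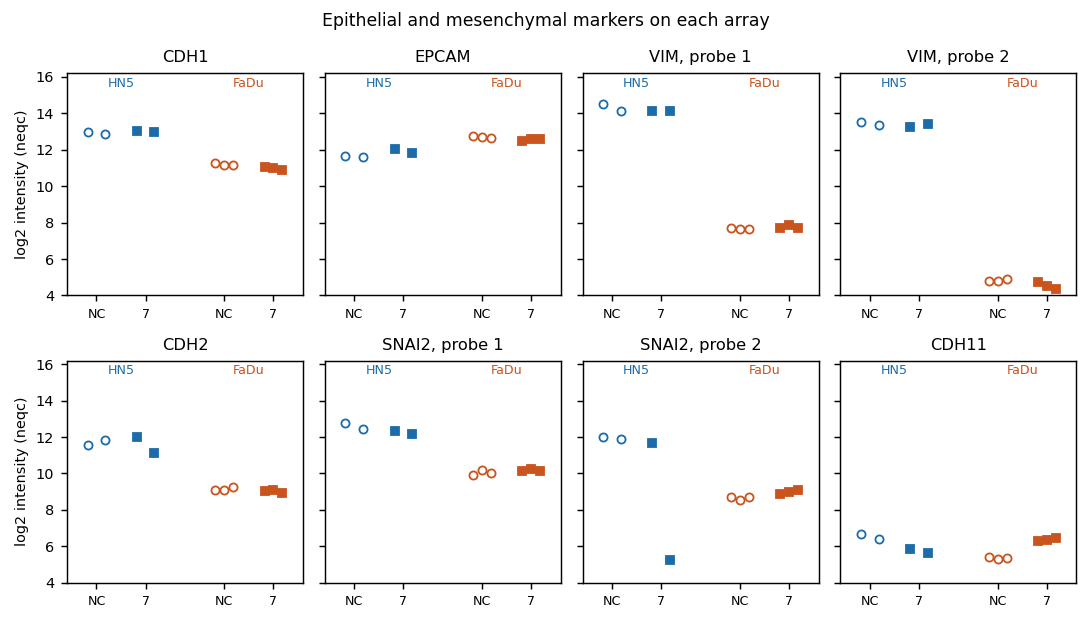
Log2 intensity on each array (y axis) of CDH1, EPCAM, both probes of VIM and of SNAI2, CDH2 and CDH11, with open circles for miR-NC and filled squares for miR-7 (FaDu by its labels). Each panel is 1 probe; VIM lies between 14.11 and 14.52 in HN5 and between 7.65 and 7.89 in FaDu on its first probe, and the second SNAI2 probe falls to 5.23 on HN5 miR-7 replicate 2 alone.

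The response was then compared between the lines, for the 31 members with a probe kept in both, by testing the log2 fold change in HN5 minus that in FaDu. By the labels, 7 of 31 differed at an adjusted p under 0.05, where 15.6% of the 8430 shared genes did. CDH11 was 1 of the 7, but was not above background in 1 group of each line, so only the bounds given above hold for it, and the same is true of ELF3 in HN5. Of the 29 members above background in both groups of both lines, 6 differed. PKP2, PKP1 and CLDN1 were lower in HN5 than in FaDu, with differences of -1.83 (95% interval -2.35 to -1.31), -1.78 (-2.27 to -1.30) and -1.11 (-1.62 to -0.60). CTNNB1, CRB3 and TJP1 were higher, by 1.46 (0.87 to 2.04), 1.27 (0.61 to 1.93) and 0.91 (0.41 to 1.42). The adjusted p lay between 0.00213 (PKP1) and 0.0284 (TJP1).

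In these 6 the sign in FaDu was opposite to that in HN5, as it was for EGFR (difference -3.24, adjusted p = 0.0002). It was opposite for 22 of the 29 members, for 24 of all 31 and for 65.6% of the shared genes. The shared genes were not limited to those above background in both groups, so 24 of 31 is the like count. With the FaDu sign turned, as it would be if its labels were exchanged, 0 of 31 members differed between the lines (3 at an unadjusted p under 0.05: CGN, SPINT1 and DSC2), and 11 of the 8430 genes did, 0.13%. The 6 genes were picked by their difference by the labels in the same arrays, which favours changes of opposite sign. Small values with the sign turned are therefore no independent check. The turned differences were 0.00 ± 0.27 for CRB3, -0.08 ± 0.22 for PKP2, 0.19 ± 0.20 for PKP1, -0.20 ± 0.22 for CLDN1, -0.38 ± 0.22 for TJP1 and -0.42 ± 0.24 for CTNNB1. Their 95% intervals reached down to -1.01 (CTNNB1) and up to 0.68 (PKP1), so that a missed threshold does not show that the lines responded alike. Which labels are right was not tested with these arrays beyond the levels of EGFR.

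**Figure D4:**
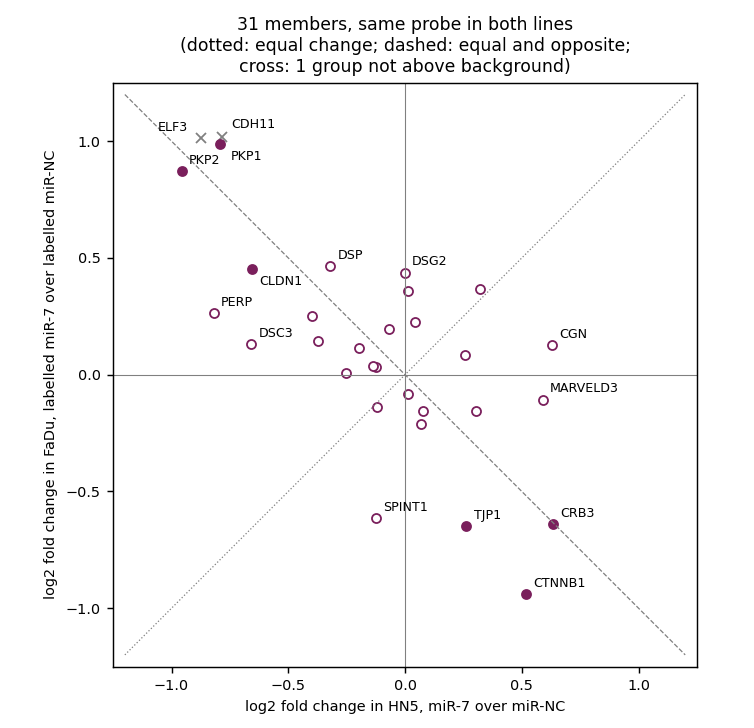
Log2 fold change of 31 members in HN5 (x axis) and in FaDu by its labels (y axis), 1 point a gene and the same probe in both lines, filled where the 2 changes differ at an adjusted p under 0.05 (6 genes), with crosses for CDH11 and ELF3, which were not above background in 1 group. PKP1, PKP2 and CLDN1 lie in the upper left and CTNNB1, TJP1 and CRB3 in the lower right, near the dashed line of equal and opposite change.

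Other genes of the same pathway were examined by count. Of 24 further junction genes, 14 were tested in FaDu and 3 passed, where 41.8% of all genes did: CLDN12 and CLDN23, both claudins, fell by 0.60 and 0.56 under the miR-7 label (adjusted p = 0.00108 and 0.000383), and CGNL1 (paracingulin) rose by 0.26 (adjusted p = 0.0345). In HN5, 0 of 16 passed and 2 were higher at an unadjusted p under 0.05 (7.58% of all genes were), CLDN23 at 0.97 and CLDN12 at 0.78 (adjusted p = 0.180 and 0.178), with NECTIN1 next at 0.62. Of 14 further mesenchymal genes, 7 were tested in each line, and 4 passed in FaDu against the same 41.8% of all genes. In FaDu TGFBI and S100A4 rose by 0.65 and 0.59 (adjusted p = 0.000264 and 0.00242), whereas ITGA5 (integrin α5) and TNC (tenascin C) fell by 0.58 and 0.39 (adjusted p = 0.00197 and 0.0141). The other TNC probe, also above background in FaDu, gave 0.16 there and did not pass. In HN5 0 passed, also at an unadjusted p under 0.05, with TWIST1 at 0.35, TGFBI at -0.27 and TGFB2 at -0.32. Of 7 further regulators of epithelial genes, 3 were tested in FaDu and 2 in HN5 and 0 passed in either, with KLF5 at 0.33 in FaDu (unadjusted p = 0.0397, adjusted p = 0.0831) and EHF at 0.20 in FaDu and -0.29 in HN5.

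Markers of the labelled cell type were present in both lines. The squamous markers KRT5, KRT14 and SFN, the 3 of 6 in their list with a named probe, were above background in both lines; in FaDu all 3 rose in the arrays labelled miR-7, KRT14 by 0.68, SFN by 0.50 and KRT5 by 0.45 (20% of all genes rose), and in HN5 0 of 3 passed. Of 7 fibroblast markers, 0 were above background on any FaDu array (summed intensity 182.4 to 199.6 under the miR-NC label and 189.5 to 209.9 under the miR-7 label) and 3 on an HN5 array (1232 to 1497 with miR-NC and 1331 to 1842 with miR-7), while COL1A2, DCN, PDGFRB and THY1 were on none. The HN5 sum was mostly COL1A1, at 0.36, whereas COL3A1 and LUM gave -0.50 and -1.06. LUM was above background with miR-NC only, and 0 of the 3 passed. Of 4 leukocyte markers CD3E and PTPRC were on none in either line. On their brightest probes CD68 and CD14 fell in FaDu by 0.30 and 0.39, where 21.8% of all genes fell. The other CD68 probes gave -0.09 and 0.23 and the other CD14 probe -0.24, and none of these passed. The leukocyte list summed to 1855 to 2194 under the miR-NC label and 1578 to 1691 under the miR-7 label in FaDu. In HN5 it summed to 4404 to 4418 with miR-NC and 6793 to 6918 with miR-7. That sum was mostly CD68, at 0.69, with CD14 at 0.25, and neither passed (limma adjusted p = 0.214 and 0.563). Of 3 endothelial markers PECAM1 was on no FaDu array and CDH5 and VWF on no HN5 array (where the list summed to 180.4 to 183.0 with miR-NC and 192.4 to 211.0 with miR-7). CDH5 rose in FaDu by 0.49 (limma adjusted p = 0.00332), where 20% of all genes rose. VWF was above background in FaDu only in the arrays labelled miR-7. It passed the filter only through them, so that it had to differ, and was at least 1.32-fold higher there. The summed intensity of the 3 in FaDu was 114.5 to 121.7 in the arrays labelled miR-NC and 173.5 to 179.7 in those labelled miR-7. The part of these markers in the results was not tested.

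Probes of 1 gene were compared where several were tested. In FaDu the tested probes of 10 of 15 such genes shared a sign, and in HN5 those of 10 of 12; in no gene did 2 probes pass with opposite signs. Over all 50 tested member probes of FaDu, 14 rose and 9 fell at an adjusted p under 0.05 over probes, and over the 46 of HN5, 0 did either. By genes, 41.8% of all those tested passed in FaDu and 0.304% in HN5. The shares over all probes are not given, so these probe counts are no result about the members. In the miR-NC arrays, 31 members in each line had a probe above background on every array, 5 had none on any HN5 array and 6 none on any FaDu array.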

How the data were processed

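For every array the authors deposited a raw intensity per probe, before any background correction or normalization, and beside it a detection p-value, stored as 1 minus p. The authors' log2 values were, per the labels, made in R 2.11.0 by variance stabilization and quantile normalization. Their cells do not follow the identifiers beside them (Spearman's rho against the raw intensity of that array was 0.0102 to 0.0195). Read row by row in the probe order of the intensities, 1 array after another, 0 values were out of rank. They were used in that order, as an alternative only.

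Intensities (48802 probes in HN5, 47230 in FaDu) were processed 1 line at a time with neqc in R 4.3.3 (limma 3.58.1), which subtracts a background estimated through the detection p-values, adds an offset of 16, quantile-normalizes and takes log2. The filter kept a probe if all arrays of 1 group or more had a detection p-value under 0.01, each gene was represented by its brightest probe, and groups were compared with lmFit and eBayes, with Benjamini-Hochberg adjustment over all genes. "Above background" means a detection p-value under 0.01. Probes with 1 gene in the array annotation (27577 and 30112) were named, with symbols updated through Entrez identifiers. Differences between lines used both moderated standard errors and Welch-Satterthwaite degrees of freedom. A limit ("at least") sets the brighter group's mean against the lowest signal above background on each dimmer array, or the probe's own if higher. It concerns the group means and takes no account of the spread between arrays. The fits were tested on simulated data. Tables and plots used Python 3.11.15, pandas 2.3.3 and Matplotlib 3.10.9.

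The members and all gene lists were chosen with earlier results of these data known. Full values are given for members past the adjusted threshold in HN5, the 10 largest changes past it in FaDu, the 2 smallest p of each role group and line, CDH1 and VIM, and members whose probes disagree; for other lists, the 3 smallest p in each line. PERP, DSC3 and MARVELD2 were added after their values were seen. The alternatives were no background correction, median scaling, the authors' values, 2 other detection filters, the mean of probes, the methods' t-test, a robust variance prior, a replicate block, and leaving out each array.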

Additional observations from a re-analysis of the deposited data

Results flagged for a closer look

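In 7 members the log2 fold change differed between HN5 and FaDu by a test of the difference itself. By the labels, PKP2 differed by -1.83, PKP1 by -1.78 and CLDN1 by -1.11, and CTNNB1 by 1.46, CRB3 by 1.27 and TJP1 by 0.91 (HN5 minus FaDu). The fitted difference of CDH11 was -1.80, but it is no measured size, since CDH11 was not above background on the HN5 miR-7 arrays or the FaDu arrays labelled miR-NC and passed the filter only through its higher group in each line. The limits on its group means leave out the spread between arrays. They were at least 1.06-fold lower with miR-7 in HN5 and at least 1.72-fold higher in FaDu. CDH11 encodes a mesenchymal cadherin, PKP1 and PKP2 desmosomal plaque proteins, CLDN1 a tight junction claudin, CTNNB1 β-catenin, CRB3 an apical polarity protein and TJP1 ZO-1. EGFR, which is no member, differed by -3.24 in the same test. With the FaDu sign turned, 0 of the 7 differed, but the 7 had been picked by their difference by the labels. The direction of the FaDu labels was not tested further.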

How the results depend on the processing

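The count of members called in HN5 was 0 in each direction under all alternatives that kept all 4 arrays, but with median scaling, no detection filter, the mean of probes or the methods' t-test 0 of all genes were called, and with the replicate block 1 lower and 10 higher, so these counts say little of stability. Leaving out 1 HN5 array gave 0 to 6 lower and 0 to 4 higher, the most without miR-7 replicate 1. In FaDu, 4 to 6 were lower and 8 to 12 higher under the alternatives other than the methods' t-test, which gave 3 lower and 9 higher, and leaving out 1 array gave 4 to 5 lower and 8 to 11 higher. Over all genes, the counts under these FaDu alternatives ran from 1547 to 2395 lower and from 1518 to 2083 higher. The median over the members in HN5 was -0.02 with median scaling, -0.06 with the mean of a gene's probes and -0.26 to 0.06 without 1 array. It was highest without miR-7 replicate 1, where replicate 2, which stood apart, was the only miR-7 array. Of the named members, 207 of 219 values under an alternative kept their direction and side of the threshold in HN5 and 240 of 254 in FaDu. Directions that turned were all of genes not called: without 1 array, SPINT1 ran from -0.307 to 0.060, VIM from -0.392 to 0.0074 and CDH2 from -0.553 to 0.312 in HN5, and CTNND1 in FaDu gave -0.0125 with median scaling and -0.0642 to 0.0534 without 1 array. Of the named members called in FaDu, SPINT1 alone lost its call, with the mean of probes (-0.30, adjusted p = 0.0502) and the methods' t-test (adjusted p = 0.0638). The cause was not tested.

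The 7 members that differed between the lines became 8 with no background correction, 8 with median scaling and 0 with the FaDu sign turned. The shares of the shared genes that differed were 15.6%, 15%, 16.8% and 0.13%, and 10.9% with a replicate block. The replicate numbers did not pair the arrays (correlation of deviations 0.000499 in HN5 and -0.0322 to 0.0570 in FaDu). With a replicate block 0 members were called in HN5, 5 were lower and 10 higher in FaDu, and 7 differed between the lines. EGFR in HN5, at an adjusted p of 0.0492, did not pass without miR-NC replicate 1 (0.529) or 2 (0.265), with median scaling (0.0609), no detection filter (0.0557), the replicate block (0.0675), the mean of probes (0.184) or the methods' t-test (0.393). The 4 HN5 arrays limit precision, and members near background have only a bound.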
